A study of Mus musculus with 8 samples.

Results

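The integrated stress response genes described here are 10 mouse genes: Atf4, Atf5, Ddit3, Chac1, Trib3, Asns, Sesn2, Psat1, Phgdh and Ppp1r15a. They were taken by name, through every array probe whose transcript accession maps to one of these symbols, which gave 13 of the 55681 probes on an array and 10 of the 20145 named genes on it. Of the 10 genes, 7 had 1 probe and 3 (Atf4, Psat1 and Phgdh) had 2. All 13 probes passed the filter on dim probes, and 12 of them lay well above background on all 8 arrays.

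Each of 8 single-colour arrays held RNA of EDL (extensor digitorum longus), a fast muscle of the lower leg, from its own male C57BL/6 mouse. The PCKO group was 4 mice in which p300 (Ep300) and CBP (Crebbp), paired acetyltransferases that act as transcriptional coactivators, had been deleted inducibly and specifically in skeletal muscle, and the WT group was 4 wild-type mice. The labels give a genotype of CBP (PCKO) for the PCKO mice, while their protocol names both genes, and no promoter or cell type driver of the deletion is named there. Induction was by oral tamoxifen over 5 days in mice that were 13 to 15 weeks old at its start, and tissue was collected 1 day after the last dose in mice fasted for 4 h. The same protocol text stands on all 8 samples but is worded for the PCKO mice, so whether WT mice received tamoxifen is not settled by it.

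The integrated stress response begins when a stress-sensing kinase phosphorylates the translation initiation factor eIF2, which slows protein synthesis in general while favouring translation of a few mRNAs, among them those of the transcription factors ATF4 and ATF5. ATF4 pairs with other basic leucine zipper proteins and binds C/EBP-ATF response elements, through which it raises genes for amino acid supply, glutathione turnover and feedback on the pathway itself. In muscle the pathway is known to respond to amino acid shortage, mitochondrial faults and stress of the endoplasmic reticulum. Because ATF4 and ATF5 are controlled largely at translation, their mRNA level and their protein level need not move together, and only mRNA was measured here.

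The promoters of 4 members are shown first, because each holds letters of a response element and the 4 genes went in opposite directions. Promoter windows from RefSeq (GRCm38.p6) were found for all 10 genes, in 12 windows that run from 250 bases before to 50 bases after a start site. Each sequence below reads 5′ to 3′ along the gene, with the matched letters in capitals.
Chac1 (chr2:119351042-119351241, + strand, bases -200 to -1): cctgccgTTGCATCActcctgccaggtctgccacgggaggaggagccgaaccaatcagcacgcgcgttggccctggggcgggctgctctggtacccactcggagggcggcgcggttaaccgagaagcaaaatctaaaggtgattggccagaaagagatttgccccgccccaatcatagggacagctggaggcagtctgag
Trib3 (chr2:152344031-152344160, - strand, bases -100 to 30): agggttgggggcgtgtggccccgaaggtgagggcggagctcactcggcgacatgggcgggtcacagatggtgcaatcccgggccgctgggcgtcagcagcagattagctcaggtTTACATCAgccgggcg
Asns (chr6:7693210-7693339, - strand, bases -130 to -1): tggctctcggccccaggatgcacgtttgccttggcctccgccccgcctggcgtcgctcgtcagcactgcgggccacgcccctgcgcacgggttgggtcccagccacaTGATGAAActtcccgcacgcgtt
Ppp1r15a (chr7:45526269-45526368, - strand, bases -100 to -1): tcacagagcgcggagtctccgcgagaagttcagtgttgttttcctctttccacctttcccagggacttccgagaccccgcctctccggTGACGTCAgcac

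The C/EBP-ATF response element was searched as TGATGNAA on both strands and was found in 3 of the 12 member windows, against 3.97% of all 32851 windows in the table. Since the members were taken by name as genes of this response, a share above that of all windows adds no support. The element's positions differed. The element lay on the reverse strand in Chac1 (bases -193 to -186) and in Trib3 (bases 15 to 22, past the start site), and on the gene's own strand in Asns (bases -23 to -16). The cAMP response element, searched as TGACGTCA, was found in Ppp1r15a (bases -12 to -5) and in 1.79% of all windows. The endoplasmic reticulum stress element, searched on both strands by its consensus, was found in no member window and in 0.119% of all windows. None of the printed matches overlap. A match is a description of letters and says nothing here of binding.

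Of the 10 genes, 4 rose in PCKO muscle (Asns, Sesn2, Ppp1r15a and Ddit3), 4 fell (Chac1, Atf5, Trib3 and Atf4) and 2 did not pass the test at any probe (Psat1 and Phgdh). Chac1 was 91.8-fold lower, while the largest rise was 2.40-fold, at Asns. Calls are by limma at each gene's brightest probe, with an adjusted p under 0.05 over all probes tested. By the same rule 69.4% of the 12739 named genes tested were called, 37.5% higher and 31.9% lower, so 8 of 10 called is near the background. The median log2 difference, PCKO minus WT, was 0.29 over the 10 genes and 0.06 over all named genes. At 2-fold or more 3 members were called (Chac1, Asns and Sesn2), against 25.5% of all named genes. In 7 of the 10 genes the 4 PCKO values and the 4 WT values did not overlap, against 65.8% of all named genes. Over single probes 8 of the 13 were called, against 65.1% of all 24872 probes tested (33.8% higher and 31.3% lower).

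**Figure D1:**
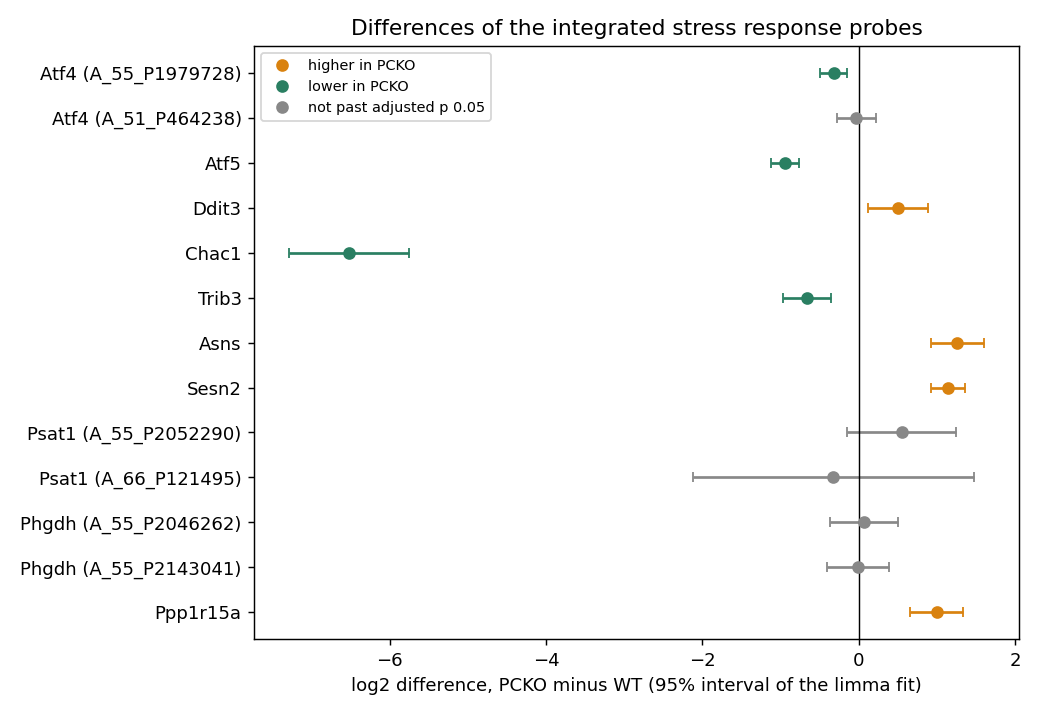
Log2 difference, PCKO minus WT, for each of the 13 probes with the 95% interval of the limma fit (4 mice per group), ordered by role with genes of several probes labelled by probe. Chac1 stands alone at -6.52, and the other called probes lie between -0.94 and 1.26.

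The levels below are log2 spot intensities relative to the 75th percentile of the same array, and differences are PCKO minus WT on that scale, each with its standard error from limma (n = 4 mice in each group). The level of one probe cannot be set against that of another. A shift of the whole scale bears on every difference. Relative to spike-in RNA, read by 7 control probes on each array, the array percentile lay at -2.80 ± 0.34 in PCKO and -3.48 ± 0.30 in WT (SD, n = 4 each). The gap was 0.68 (two-sided exact permutation p = 0.0286, the smallest value that 4 against 4 mice can give). The log2 level of the spike-ins itself ran from 9.68 in PCKO mouse 4 to 10.66 in WT mouse 1, a spread wider than this gap. The groups were separated narrowly, at -3.21 for both PCKO mouse 1 and WT mouse 4. With the percentile taken over all spots instead of probes, chosen after seeing the data, the gap was 0.65, the groups overlapped and the same exact permutation test gave p = 0.0571. Centring on the spike-ins therefore raises every difference by 0.68, and members whose direction or call depends on this are named where they are described.

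Of the 3 transcription factors, Atf4 and Atf5 fell and Ddit3 rose. Atf4, the central activator of the response, stood at 8.85, 8.74, 8.83 and 8.71 in the PCKO mice at its brighter probe, against 9.10, 9.12, 9.16 and 9.04 in WT. All PCKO mice lay below all WT mice by a small margin. The difference was -0.32 ± 0.07 (adjusted p = 0.00474), or 1.25-fold, but it turned to 0.28 (adjusted p = 0.00833) under quantile normalization and to 0.35 (adjusted p = 0.307) with spike-in centring. Over all 22 alternatives in which this probe could be fitted, its adjusted p ran from 8.30e-04 to 0.865. Before any scaling its intensities were 65344 to 87318 in PCKO and 60252 to 80860 in WT. These overlapped, so the lower level in PCKO was seen relative to the array percentile. Unscaled intensity also moves with the brightness of each array. The other Atf4 probe, for the same transcript accession, overlapped between groups at 1.46, 1.51, 1.32 and 1.55 in PCKO, against 1.35, 1.34, 1.71 and 1.56 in WT. It did not pass, with a difference of -0.03 ± 0.11 and an interval of -0.28 to 0.22. The gap between both probes was smaller in PCKO than in WT by 0.29, a difference that did not pass (exact permutation test, two-sided, p = 0.0857, adjusted over 3 genes p = 0.171).

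Atf5, a close relative of ATF4 that is also favoured in translation during the response, fell as well. It stood at 6.28, 6.36, 6.24 and 6.14 in PCKO, against 7.28, 7.14, 7.24 and 7.14 in WT. All 4 PCKO mice were below all WT mice, and the spread within each group was small. The difference was -0.94 ± 0.08 (adjusted p = 1.66e-05), or 1.92-fold lower. With spike-in centring it was -0.27 and no longer passed (adjusted p = 0.448, with a range of 4.25e-07 to 0.448 over its 23 alternatives). Ddit3, which encodes CHOP, the factor tied to cell death under lasting stress, went the other way. Its values were 0.39, 0.70, 0.06 and 0.82 in PCKO, against 0.10, 0.10, -0.14 and -0.11 in WT, and PCKO mouse 3 lay among the WT mice. The difference was 0.50 ± 0.17 (adjusted p = 0.0264), or 1.42-fold. This call was lost without PCKO mouse 2 (0.43), PCKO mouse 4 (0.39), WT mouse 3 (0.46) or WT mouse 4 (0.47), with adjusted p of 0.0606 to 0.0690. Over its 23 alternatives the adjusted p ran from 4.72e-04 to 0.183.

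Among the targets, Chac1, a glutathione-degrading enzyme and a standard target of the ATF4 and CHOP pathway, stood at 0.89, 1.28, 1.07 and 0.23 in PCKO, against 7.29, 7.67, 8.04 and 6.56 in WT. No PCKO mouse came near a WT mouse. Its unscaled intensity was 182 to 495 in PCKO and 11946 to 32051 in WT, and the probe was well above background on all 8 arrays, so the fold change is measured on both sides. The difference was -6.52 ± 0.34 (adjusted p = 8.88e-07), with an interval of -7.29 to -5.75. It ranked as the 20th lowest among 12739 genes, and it ran from -6.80 to -5.85 over the 22 alternatives that could be fitted, which include spike-in centring. Trib3, a pseudokinase that restrains ATF4 and CHOP, also fell. Its values were 1.33, 1.90, 1.64 and 1.63 in PCKO, against 2.38, 2.08, 2.45 and 2.24 in WT. The groups did not overlap, and the difference was -0.66 ± 0.14 (adjusted p = 0.00268), or 1.58-fold lower. With spike-in centring it was 0.01 (adjusted p = 0.974, with a range of 7.40e-04 to 0.974 over 23 alternatives). The fall was thus seen relative to the array percentile and not relative to the spike-ins.

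Asns, asparagine synthetase, rose. It stood at 2.17, 2.35, 2.15 and 2.15 in PCKO, against 0.50, 1.19, 1.06 and 1.01 in WT, with WT mouse 1 the lowest of all. The difference was 1.26 ± 0.15 (adjusted p = 1.11e-04), or 2.40-fold. Its promoter shares the TGATGNAA letters with those of Chac1 and Trib3 printed above, while its direction was opposite to theirs. Sesn2, sestrin 2, a leucine-sensing brake on the growth kinase mTORC1, had 0.66, 0.67, 0.82 and 0.58 in PCKO, against -0.42, -0.44, -0.33 and -0.66 in WT. Its groups were far apart relative to their spread, and the difference was 1.14 ± 0.10 (adjusted p = 1.65e-05), or 2.21-fold.

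Neither member of the serine synthesis route passed the test. Phgdh, the first enzyme of the route, stood at 0.07, 0.74, -0.14 and -0.01 in PCKO at its brighter probe, against -0.06, 0.28, 0.13 and 0.03 in WT. PCKO mouse 2 was the highest and PCKO mouse 3 the lowest of all 8, and the other PCKO mice lay among the WT mice. The difference was 0.07 ± 0.19 with an interval of -0.36 to 0.50 (adjusted p = 0.762), and 0.75 with spike-in centring, where it passed (adjusted p = 0.0275, within a range of 0.0275 to 0.981 over its 23 alternatives). The second Phgdh probe gave -0.22, 0.30, -0.50 and -0.39 in PCKO, against -0.37, -0.02, -0.16 and -0.21 in WT, and a difference of -0.01 ± 0.17 with an interval of -0.41 to 0.38. Both probes thus showed the same order of mice within each group. Psat1, the next enzyme, stood at 1.0, 1.47, 0.46 and 0.64 in PCKO at its brighter probe, against -0.46, 0.48, 0.56 and 0.79 in WT. The groups overlapped, and the difference of 0.55 ± 0.31 did not pass (adjusted p = 0.145, interval -0.15 to 1.25). It did pass with spike-in centring (1.22) and with normexp, another background correction, applied to the median spot signal (0.52), with adjusted p of 3.62e-04 and 0.0307, within a range of 3.62e-04 to 0.543 over its 22 alternatives. The dimmer Psat1 probe was well above background on 3 PCKO and 3 WT arrays, spread over -4.28 to -2.43 in PCKO and -4.5 to -0.54 in WT, and differed by -0.32 ± 0.79, an interval of -2.12 to 1.47. With normexp it passed in the direction opposite to that of the brighter probe (-0.54, adjusted p = 0.0147, within a range of 0.0147 to 0.983 over its 21 alternatives).

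Ppp1r15a, which encodes GADD34, the phosphatase subunit that reverses eIF2 phosphorylation and so ends the response, rose. Its values were 5.29, 5.62, 5.32 and 5.19 in PCKO, against 4.32, 4.30, 4.72 and 4.10 in WT. All PCKO mice lay above all WT mice, and the difference was 1.0 ± 0.15 (adjusted p = 4.66e-04), just under 2-fold. Ppp1r15b, the constitutive subunit that does the same task, did not pass (-0.17 ± 0.22, interval -0.68 to 0.33). Its probe was dim and well above background on 3 of the 4 WT arrays. Ppp1r15b did pass, as lower, with normexp background correction (-0.41) and without WT mouse 4 (-0.40).

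**Figure D2:**
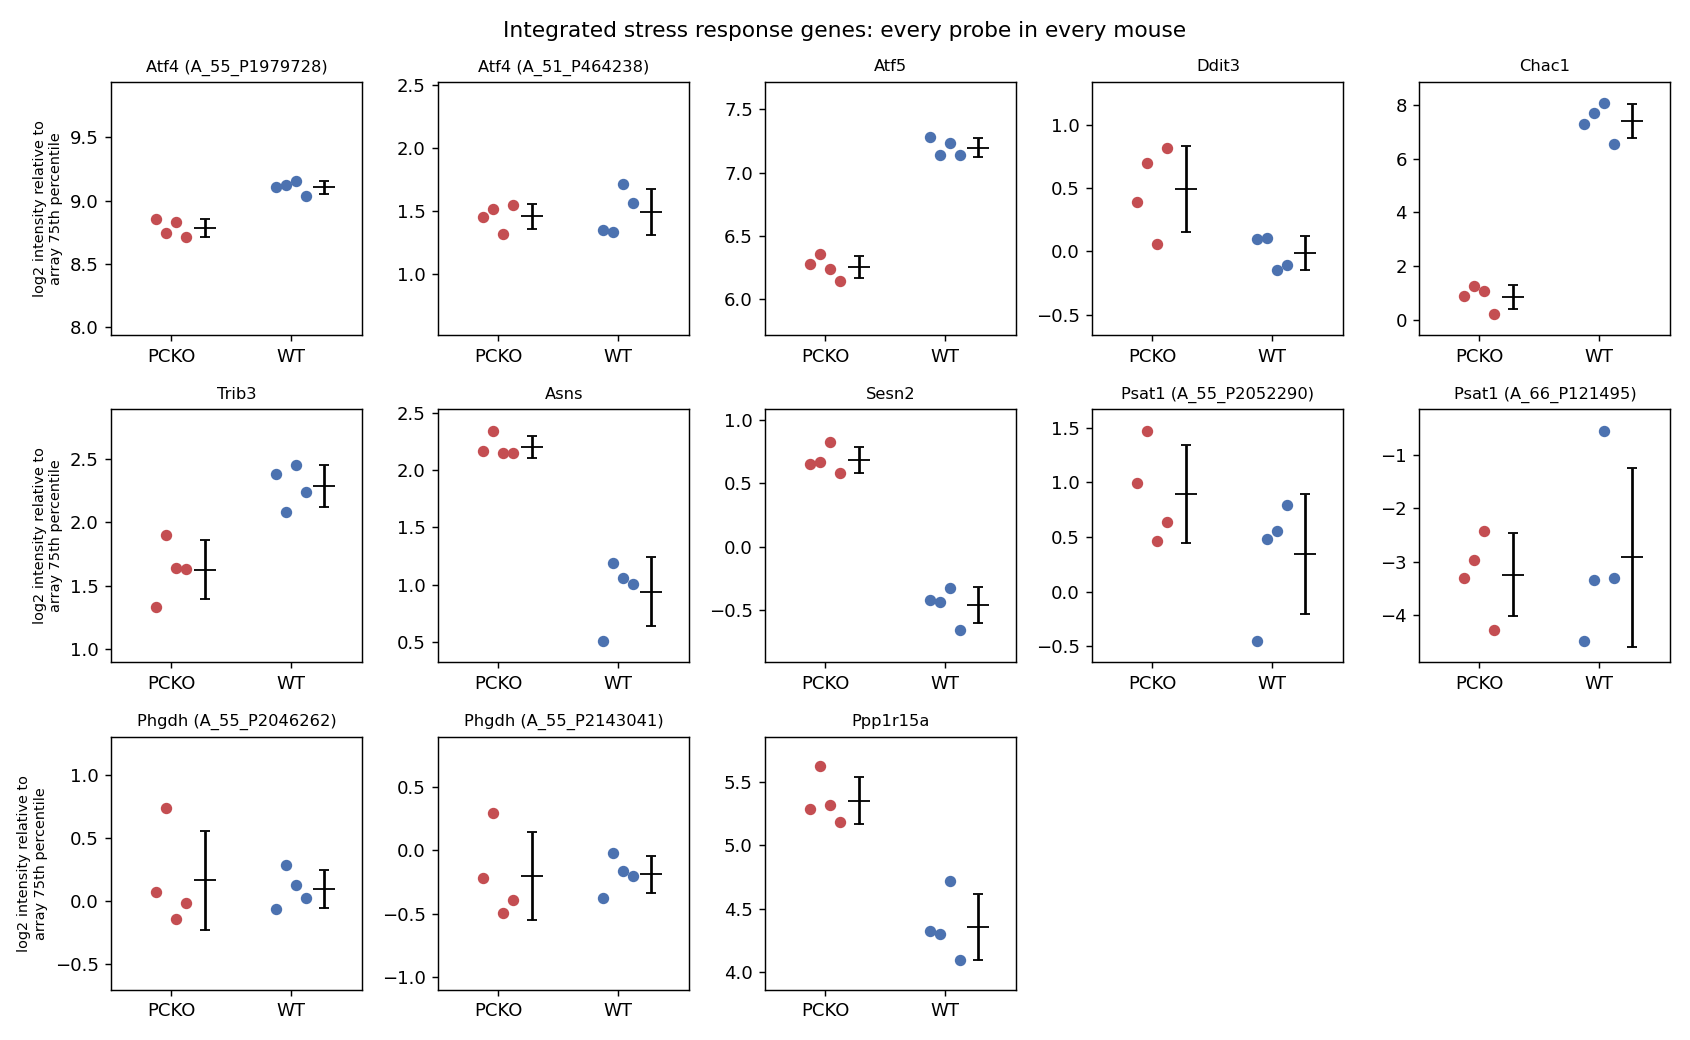
Log2 intensity relative to the array's 75th percentile for each of the 13 probes, 1 point per mouse in replicate order, with the mean and SD of each group of 4 beside the points. Chac1 is at most 1.28 in the PCKO mice and at least 6.56 in the WT mice, while Ddit3, the dimmer Atf4 probe and all Psat1 and Phgdh probes overlap between groups. Each panel has its own axis.

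Within the PCKO group the same mouse was often at the top. PCKO mouse 2 was the highest of the 4 in 7 of the 10 genes (Atf5, Chac1, Trib3, Asns, Psat1, Phgdh and Ppp1r15a), and PCKO mouse 4 was the lowest in 6 (Atf4, Atf5, Chac1, Asns, Sesn2 and Ppp1r15a). Among WT mice, mouse 3 was the highest in 5 genes and mouse 4 the lowest in 5. Both lists hold genes that rose and genes that fell between groups. How often each mouse was highest or lowest over all named genes was not counted, so these orders are not shown to be particular to the members. The SD over mice was larger in PCKO in 5 of the 10 genes.

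The slide that carried the 8 arrays had 2 rows: mice 1 and 2 of each group were in the first and mice 3 and 4 in the second. Within the first and the second row, the difference was -6.39 and -6.65 for Chac1, 1.41 and 1.12 for Asns, and 1.09 and 1.20 for Sesn2. It was -0.89 and -0.99 for Atf5, 1.15 and 0.85 for Ppp1r15a, and -0.61 and -0.71 for Trib3. For Ddit3 it was 0.44 and 0.56, and for Atf4 -0.32 and -0.33. Each of the 8 called genes had the same direction in both rows. For the 7 whose groups did not overlap this was fixed in advance, so it adds no support. Ddit3 could have turned, but it was called on these same arrays. Chac1, Asns, Sesn2 and Atf5 also passed in each row alone. The other 4 did not pass in at least 1 row. Psat1 differed by 1.22 in the first row (adjusted p = 0.0498, within its range of 3.62e-04 to 0.543) and by -0.12 in the second, and Phgdh by 0.30 and -0.16.

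The calls moved with the scaling. With spike-in centring 6 members were higher (Ddit3, Asns, Sesn2, Psat1, Phgdh and Ppp1r15a) and 1, Chac1, lower. Asns then differed by 1.94, Sesn2 by 1.82 and Ppp1r15a by 1.67. The split over all probes moved as well, with 84.3% of called probes higher under spike-in centring against 51.9% in the main scaling. Chac1 kept its direction and call under each scaling of the plot of scalings in which it was measured, as did Asns, Sesn2 and Ppp1r15a.

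**Figure D3:**
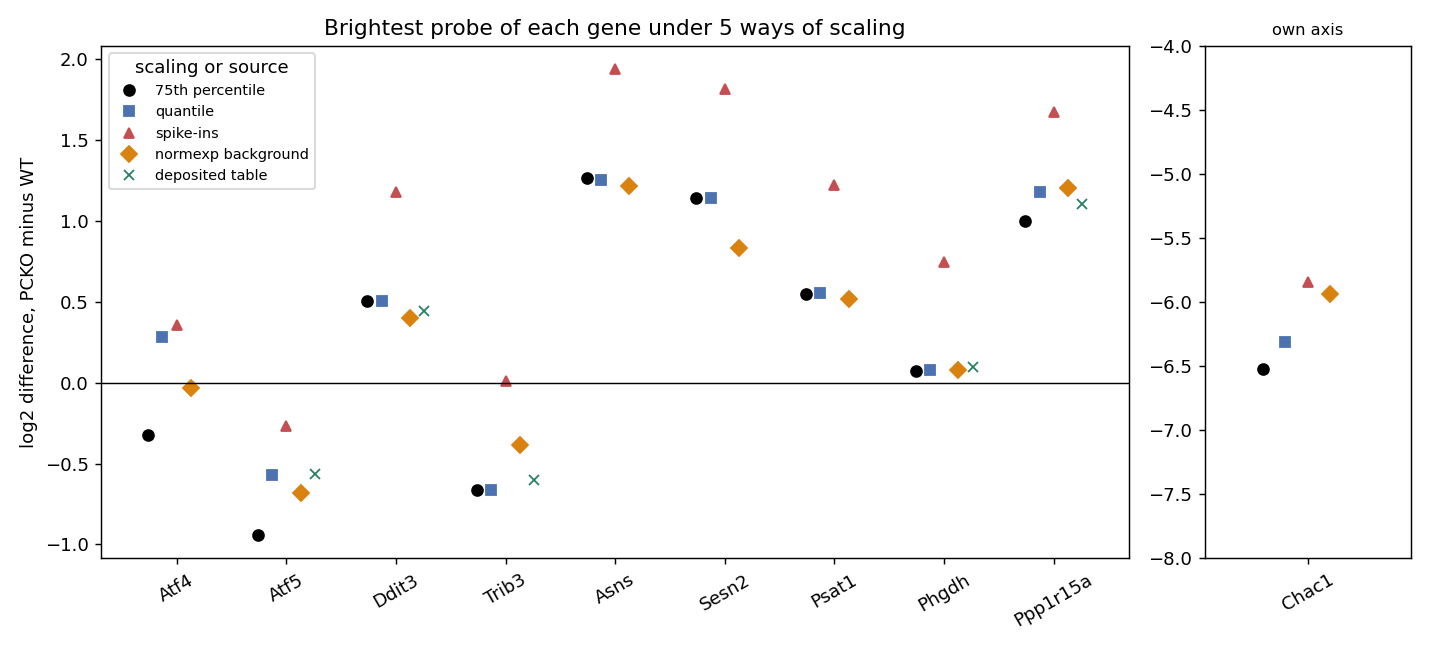
Log2 difference, PCKO minus WT, at the brightest probe of each member under 5 scalings or sources, with Chac1 on its own axis. Atf4 lies below 0 with the 75th percentile and above 0 with quantile normalization and spike-ins, whereas Asns, Sesn2 and Ppp1r15a are above 0 throughout. The deposited table lists 5 of the 10 probes.

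Ep300 and Crebbp, the targeted genes, were both lower in PCKO (-1.44 and -0.70). With spike-in centring Ep300 stood at -0.77 and still passed, while Crebbp stood at -0.03 and did not, nor did Crebbp pass with normexp background correction (-0.41). Where their probes lie relative to the deleted parts is not known here. Cell type markers moved too. In this bulk tissue fewer cells of a type and less RNA per cell cannot be told apart. All 10 skeletal muscle markers were detected and lower in PCKO, their summed linear level being 2561 to 3053 in PCKO and 7165 to 8886 in WT. Lower as well were 7 of 8 endothelial markers (sums 62.1 to 75.6 in PCKO, 106 to 115 in WT), 4 of 7 macrophage and leukocyte markers (12 to 20.5 in PCKO, 27.9 to 36.3 in WT, with Cd68 not named on the array), and 6 of 6 fibroblast markers (237 to 345 in PCKO, 548 to 822 in WT). A sum is weighted towards its brightest probes, and that of the macrophage and leukocyte markers was mostly Csf1r (log2 3.50 in PCKO, 4.55 in WT). Adipocyte markers had 1 of 3 lower, Fabp4 (sums 139 to 203 in PCKO, 253 to 330 in WT, with Lep not tested). These sums were mostly Fabp4 (log2 7.32 in PCKO, 8.11 in WT), while Adipoq and Plin1 overlapped between groups and were not called. Satellite cell markers had 1 of 3 lower (9.44 to 10.7 in PCKO, 10.4 to 13.3 in WT, with Myf5 well above background on no array). Schwann cell markers had 1 of 4 lower (4.96 to 11.5 in PCKO, 6.63 to 11.9 in WT). None of 4 erythroid markers passed (853 to 1636 in PCKO, 645 to 2320 in WT). No marker list held a gene that rose, while 37.5% of all named genes tested were higher and 31.9% lower. With spike-in centring 7 of the 10 muscle and 5 of the 6 fibroblast markers stayed below 0, as did 4 of 8 endothelial and 4 of 7 macrophage and leukocyte markers. The part of any of these in the member results was not tested.

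The rest of the pathway was read in 7 lists of genes that are not members, in which Atf3, Atf6, Cars and Dnajc3 stand in more than one. Each count is to be set beside all named genes tested, of which 37.5% were higher and 31.9% lower. In the eIF2 list and the synthetase list neither count exceeded its share. With spike-in centring the background moved too, to 12869 probes higher and 2396 lower of 24872. Upstream, 7 of 22 genes of the eIF2 kinases and eIF2 machinery rose and 3 fell (median 0.12). Of the 4 kinases that can start the response, 3 rose. Eif2ak2, the double-stranded RNA sensor PKR, stood at 0.90 to 1.53 in PCKO and -1.26 to -0.69 in WT, a difference of 1.98 ± 0.18 (adjusted p = 2.30e-05). Eif2ak4, the amino acid sensor GCN2, differed by 1.15 ± 0.10 and Eif2ak3, the endoplasmic reticulum sensor PERK, by 0.71 ± 0.09. Eif2ak1, the haem sensor HRI, did not pass (0.04 ± 0.10, interval -0.19 to 0.27), but did with spike-in centring (0.71). Impact, an inhibitor of GCN2, rose by 1.53 ± 0.12. Eif2b2, a subunit of the eIF2B exchange factor, fell by 0.74 ± 0.07 on the log2 scale, and Oma1, a mitochondrial protease that relays mitochondrial stress to HRI, by 0.30 ± 0.07. The count of risers in this list was 13 both with spike-in centring and under quantile normalization. It was 11 with normexp background correction (median 0.34) and 4 in the second slide row alone. With spike-in centring none was lower, Oma1 turned to 0.37 and Eif2b2 no longer passed (-0.07). Oma1 also did not pass with normexp background correction (-0.18) or in either slide row.

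Of 24 partners and relatives of the member proteins, 12 fell and 6 rose (median -0.53), but with spike-in centring 5 were lower and 7 higher (median 0.15). In the deposited values 8 were lower and 6 higher of 19 listed (median -0.17). Atf3, a stress-induced relative of ATF4, rose by 3.10 ± 0.43 and Jdp2, a repressor of the same leucine zipper class, by 4.07 ± 0.23 (16.8-fold). Cebpb and Cebpg, which can pair with ATF4, both fell, Cebpb by 1.07 ± 0.12 and Cebpg by 0.60 ± 0.11 on the log2 scale. With spike-in centring Cebpb no longer passed (-0.39) and Cebpg turned to 0.08; Cebpg also did not pass in the first slide row. The families of Trib3, Chac1 and Sesn2 can be set beside them. Trib2 and Trib1, pseudokinases like Trib3, differed by -2.24 ± 0.18 and -1.92 ± 0.21, and Chac2, a paralogue of Chac1, by -1.47 ± 0.11, or 2.78-fold lower against 91.8-fold for Chac1. Sestrins went both ways, Sesn3 higher by 0.77 ± 0.10 and Sesn1 lower by 0.67 ± 0.17. Sesn1 turned to 0.0032 with spike-in centring, and did not pass with normexp background correction (-0.38) or in either slide row.

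Genes of serine, one-carbon and proline synthesis had 7 of 16 higher and 3 lower (median 0.36), with 12 higher under spike-in centring. Psph, the last enzyme of the serine route, did not pass (0.00079 ± 0.19, interval -0.42 to 0.43), so none of Phgdh, Psat1 and Psph passed in the main scaling. With spike-in centring all 3 were called higher, Psph at 0.68. Aldh18a1, the first enzyme of proline synthesis, was well above background on every PCKO array and on no WT array. It is among the 7 called higher, but it entered the test through its PCKO arrays alone. Its call rests on WT values that were not well above background and gives no support of its own. In the main scaling it was at least 3.73-fold higher, a bound that depends on that scaling and its background correction. Mthfd2, a mitochondrial folate enzyme, was higher by 1.27 ± 0.19. Lower were Cth, which makes cysteine (-2.07 ± 0.46), and Gpt2, mitochondrial alanine aminotransferase (-1.80 ± 0.13). With normexp background correction the log2 differences of Aldh18a1 (0.21) and Mthfd2 (0.11) did not pass, and Cth did not in the second slide row (-1.67).

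Aminoacyl-tRNA synthetases, well-known ATF4 targets, were counted with Xpot, the tRNA exporter. Of 21, 4 were higher and 6 lower (median -0.17). These counts were 7 and 4 under quantile normalization (median 0.07) and 9 and 0 with spike-in centring (median 0.51). With normexp background correction they were 6 and 2 (median 0.13), and 3 were lower without PCKO mouse 1 or without WT mouse 3. Xpot was at 0.64 ± 0.07 and Hars, for histidine, at 0.50 ± 0.12. Cars, for cysteine, was at -0.56 ± 0.08 and Iars, for isoleucine, at -0.40 ± 0.10, and these turned to 0.12 and 0.27 with spike-in centring. With normexp background correction neither passed (-0.29 for Cars and -0.17 for Iars), and Iars passed in neither slide row and Hars not in the second.

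Amino acid transporters known as ATF4 targets had 5 of 10 higher and 5 lower (median 0.03), against 5 and 2 with spike-in centring (median 0.70) and 5 and 3 of 8 listed in the authors' deposited values (median 0.66). Slc38a1, a glutamine carrier, rose by 2.11 ± 0.20 and Slc7a5, the large neutral amino acid exchanger, by 1.79 ± 0.10. Slc6a9, a glycine carrier, fell by 1.66 ± 0.14 on the log2 scale and Slc43a1 by 1.39 ± 0.19. Of 19 other stress-induced ATF4 and CHOP targets, 5 were higher and 9 lower (median -0.56), against 8 and 6 with spike-in centring (median 0.12). The counts were 6 and 8 under quantile normalization (median -0.29), and 5 and 6 of 15 listed in the deposited values (median -0.06). Vldlr, a lipoprotein receptor, differed by -2.17 ± 0.13 and Eif4ebp1, a brake on cap-dependent translation, by -2.08 ± 0.11. Ero1a, an oxidase of the endoplasmic reticulum, was higher by 1.77 ± 0.27, and its probe was well above background on 2 of the 4 WT arrays; it did not pass with normexp background correction (0.09). Fgf21, a hormone that muscle can release under mitochondrial stress, was well above background on none of the 8 arrays. Gdf15, another such hormone, did not pass (-0.02 ± 0.32, interval -0.76 to 0.71). The Gdf15 probe was dim (log2 -2.85 in PCKO, -2.83 in WT) and well above background on 3 of the 4 WT arrays.

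The neighbouring arms of the unfolded protein response, run by IRE1 and ATF6, had 16 of 24 genes higher and 3 lower (median 0.50, against 0.06 over all named genes). Pdia4, a disulphide isomerase, was higher by 1.36 ± 0.19 and Ern1, which encodes IRE1 itself, by 1.35 ± 0.14. Sec61b, a subunit of the protein channel, was lower by 0.95 ± 0.13 and did not pass with spike-in centring (-0.27). Derl1, a factor of protein retrieval, was at -0.37 ± 0.11 for the brightest of its probes and at 0.37 for another. The brightest turned to 0.31 with spike-in centring and did not pass with normexp background correction (-0.09), without a dim filter or in either slide row. The counts of this list were 16 and 2 under quantile normalization and 20 and 0 with spike-in centring.

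**Figure D4:**
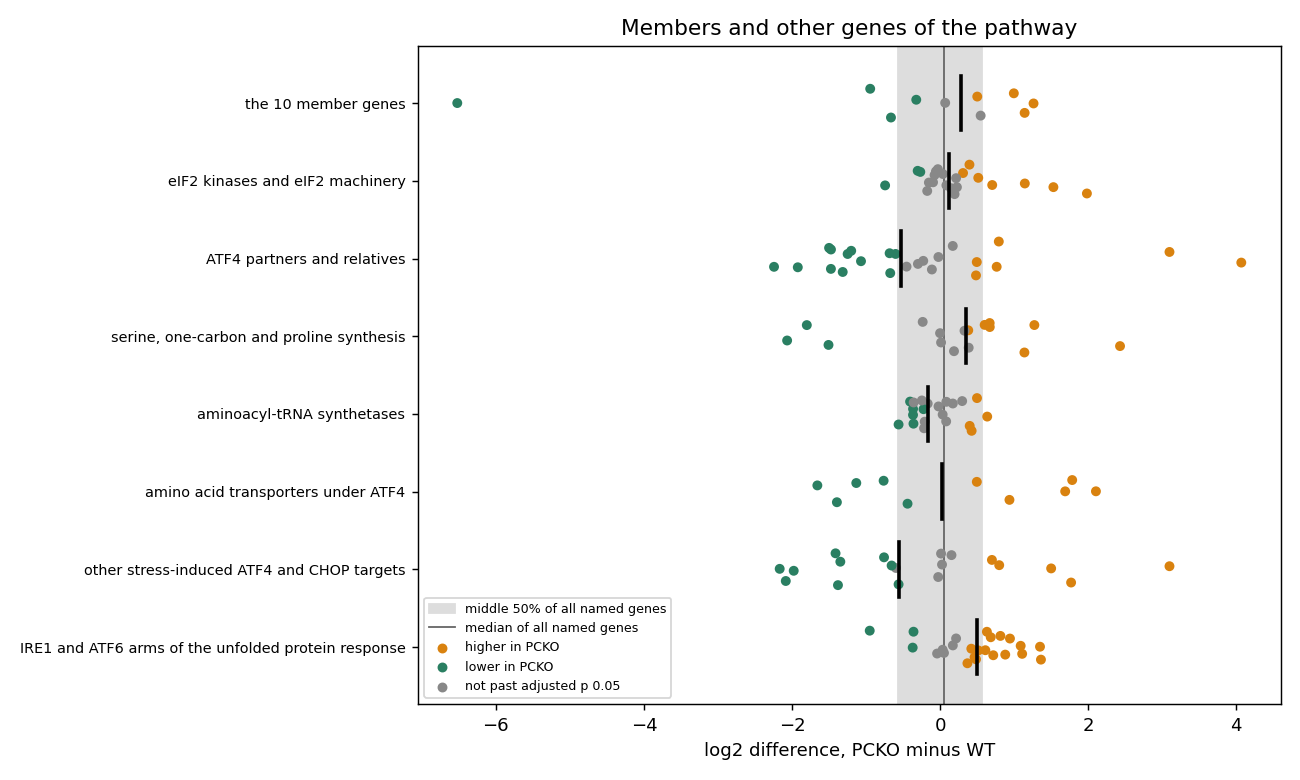
Log2 difference, PCKO minus WT, for the brightest probe of each tested gene in the member set and in 7 lists of the same pathway, with the list's median as a black bar and the median and middle 50% of all 12739 named genes in grey. The member set spans -6.52 to 1.26, and the list of the IRE1 and ATF6 arms lies mostly to the right of the grey line.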

How the data were processed

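The members, gene lists and settings were chosen with earlier results of these data known. The deposited scanner files hold spot intensity values from Feature Extraction 10.7.3.1, background-subtracted and detrended within each array, per the file headers. A series table deposited beside them has log2 values. How these were made, and whether background was taken off, is unknown. Each column correlated with the median signal of its array at 0.999 or more, column medians were 5.45 to 5.52, and 32622 non-control probes were listed. That table was an alternative only.

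Here log2 of the processed signal was taken relative to each array's 75th percentile. Control and outlier spots were left out, spots of a probe averaged, and a probe tested if well above background on at least 4 of 8 arrays. Accessions were matched to RefSeq symbols (GRCm38.p6), naming 26582 probes and leaving 29099 unnamed. The PCKO and WT arrays were fitted by group alone in limma 3.58.1 (R 4.3.3). Two-sided p-values were adjusted by Benjamini-Hochberg over 24872 probes, and calls are at 0.05. A gene stands for its brightest probe. Where a probe was above background in 1 group alone, a minimum fold in the main scaling is printed. Between 24207 and 25673 probes (43.5% to 46.1%) were well above background on an array, no spot was saturated, and the number of arrays limits the precision. Arrays correlated at 0.988 to 0.991 within groups and 0.916 to 0.930 between them.

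Named genes were the members, the 2 highest and 2 lowest called genes of each list, the eIF2 kinases, and fixed relatives and partners of the members; Gdf15 and Fgf21 were added after values were seen. Data were simulated for 24784 probes, with changes of 0.5, 1 and 2 log2 units put into 67, 67 and 66 of them. The fit recovered 31.3%, 64.2% and 89.4% of these, with 2 false calls among 125. Far fewer probes changed there than the 65.1% called in the data, which makes the adjusted p stricter. These rates therefore do not describe recovery or false calls in the comparison of PCKO with WT. Alternatives were other scalings, background correction, filters, variance models, the deposited values, blocks and leaving out mice.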

Additional observations from a re-analysis of the deposited data

Results flagged for a closer look

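Dixon's test at the 95% level was applied to the log2 levels of the members and named genes in each group of 4 mice. Of 100 such groups 8 held a mouse apart from the rest, where chance gives about 1 in 20. Among the members only Asns was flagged, with PCKO mouse 2 at 2.35 and the other PCKO mice at 2.15 to 2.17, all far above WT. PCKO mouse 2 was also apart for Impact (4.93, the others 5.19 to 5.21). PCKO mouse 4 was apart for Trib1 (-0.32, the others 0.43 to 0.59), for Psph (2.72, the others 3.16 to 3.24) and for Mthfd2 (-1.67, the others -1.19 to -1.11). In WT, mouse 4 was apart for Mthfd2 (-3.05, the others -2.41 to -2.33), mouse 1 for Cebpg (0.65, the others 0.79 to 0.82) and mouse 2 for Cth (0.40, the others -0.24 to -0.14).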

How the results depend on the processing

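Each member probe was refitted under up to 23 alternatives. Of 288 such values 267 kept their direction and side of the threshold or failed in both fits, 13 lost a call and 5 gained one. Another 3 turned sign with a call in at least 1 of the 2 fits. Values that turned sign without a call in either fit stand among the 267. Atf4 turned under quantile normalization (0.28) and, centred on spike-ins, to 0.35, as did Trib3 (0.013). Named pathway genes that turned in this sense did so with spike-in centring: Oma1 (0.37), Cebpg (0.075), Sesn1 (0.0032), Cars (0.12), Iars (0.27) and Derl1 (0.31). Spike-in centring adds 0.68 to every difference by construction, and for quantile normalization the cause was not tested. The count of members higher was 4 in the main scaling, 6 under spike-in centring, 5 under quantile normalization and with normexp, 3 without a dim filter, and 2 in the deposited values and in the second slide row alone. The count lower was 4, with 1 under spike-in centring, 3 under quantile normalization, with normexp and in the second slide row alone, and 2 in the deposited values and in the first slide row alone. The deposited table lists 5 of the 10 brightest probes, and single rows hold 2 mice a group. Without each mouse in turn, 3 to 4 members were higher and 4 lower. Atf4 lost its call with normexp background correction (-0.03) and in each slide row, and Ddit3 without a filter on dim probes (adjusted p = 0.0806, within a range of 4.72e-04 to 0.183 over 23 alternatives). The replicate numbers shared by the groups were checked for pairing: deviations of same-numbered mice correlated at 0.02 to 0.09, under the 0.1 set for pairing, although 3 of 4 PCKO mice and 3 of 4 WT mice correlated best with their own number. With the replicate block 4 members were higher and 4 lower, and over all probes 8170 were higher and 7721 lower, against 8397 and 7785. Over all probes without a dim filter 7474 were higher and 7323 lower of 55681. The SD of Ddit3 over PCKO mice was 0.34, against 0.13 over WT mice.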

Other observations

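Response element letters in promoters were also set beside the differences of all genes. Of 278 tested genes whose window holds TGATGNAA, 30.9% were higher and 37.4% lower in PCKO, against 38.2% and 31.0% of the 10144 tested genes with a window in the table. Of 354 tested genes with TGACGTCA, as in Ppp1r15a, 45.5% were higher and 26.8% lower. Of 14 genes with the endoplasmic reticulum stress element, 57.1% were higher and 14.3% lower, and their median difference was 0.49. These shares describe windows of 300 bases at annotated starts, and whether base composition or expression level moves with them was not tested.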
